A study of Mus musculus with 24 samples.

Results

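The 10 genes described here, Aars, Cars, Eprs, Gars, Iars, Mars, Nars, Sars, Tars and Wars, code for cytosolic aminoacyl-tRNA synthetases, and they were taken by symbol from the 24453 named genes of an RNA-seq table of mouse aortic vascular smooth muscle cells (VSMCs). All 10 were among the 12648 genes that passed the filter on low values and were tested. The cells were primary cultures of few passages from the thoracic aortas of young adult C57BL/6 mice, with no allele or transgene named in the labels, and all conditions had 0.2% BSA in the medium. Cholesterol cells received cholesterol complexed to the carrier methyl-β-cyclodextrin (Chol:MβCD) at 20 µg/mL for 24 h (3 libraries) or 48 h (3 libraries), while control cells received the BSA medium alone for 0 h (3 libraries), 24 h (3 libraries) or 48 h (2 libraries). Control cells got no empty cyclodextrin, so effects of the cholesterol and of its carrier cannot be told apart. The same 5 conditions were profiled by ChIP-seq for H3K27ac, a histone mark of active promoters and enhancers, with 1 library and 1 input per condition.

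Each aminoacyl-tRNA synthetase joins 1 amino acid to its cognate tRNA, using ATP, and so supplies the ribosome with charged tRNAs for protein synthesis. The enzymes fall into a pair of structural classes with unrelated catalytic folds, class I and class II, and several of them, Eprs, Iars and Mars included, sit in a large multi-tRNA synthetase complex in the cytosol of animal cells. Many synthetase genes are known targets of the transcription factor ATF4 in the amino acid response, in which uncharged tRNA activates the kinase GCN2, which phosphorylates the translation initiation factor eIF2α. Kinases that sense other stresses, such as PERK in the endoplasmic reticulum, phosphorylate the same factor. ATF4 pairs with CCAAT-enhancer binding proteins on an element with the core TGATGNAA.

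The start regions of the genes were searched for that core because it is the element best known for this family. RefSeq promoter windows (mouse GRCm38, 250 bases before to 50 after the start, 300 bases in all) were matched for 7 of the 10 genes, Aars, Eprs, Gars, Iars, Mars, Sars and Tars. TGATGNAA, read on both strands, stood in 4 of these 7 windows, those of Aars, Gars, Iars and Tars, and in 3.97% of the 32851 windows of the table. The matches of Gars, Iars and Tars lay on the strand opposite to the gene. The 30 bases around each of these 3 are shown on the strand that carries the match, with the core in capitals.
Gars, chr6:55037960-55037989, minus strand, 30 to 23 bases before the start: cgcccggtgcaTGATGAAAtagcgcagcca
Iars, chr13:49682126-49682155, minus strand, 7 to 14 bases after the start: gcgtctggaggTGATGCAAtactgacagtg
Tars, chr15:11399655-11399684, plus strand, 15 to 8 bases before the start: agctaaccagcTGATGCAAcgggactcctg
Those of Iars and Tars read TGATGCAA, and that of Gars reads TGATGAAA. CCAAT, a common promoter motif that does not overlap this core, was found on either strand in 4 of the 7 windows (Aars, Iars, Mars and Tars) and in 37.4% of all windows. The ER stress response element, searched by its consensus, was in 0 of the 7 and in 0.119% of all windows. The stretch just before the start of Tars is shown because it holds both motifs, here on the strand of the gene, so that the core appears in capitals as TTGCATCA and the CCAAT motif as ATTGG.
Tars, chr15:11399659-11399768, minus strand: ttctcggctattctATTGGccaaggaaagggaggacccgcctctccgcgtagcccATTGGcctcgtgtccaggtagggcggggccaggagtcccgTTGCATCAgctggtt
A match describes the letters only, and binding at these positions was not measured.

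The authors' values are RPKM, tags per kilobase of gene body (introns included), scaled to the total tags of the library. They were rescaled here between libraries and are called normalised RPKM, or RPKM for short. The table kept 2726570 to 7590640 tags per library after removal of repeated positions, with the smallest total in control 0 h replicate 1, and 353 to 2913 tags stood behind each value of the 10 genes, which gives a counting error of at most 5.32%. All 9 contractile markers of smooth muscle were detected in every group. Their summed levels were 143 to 242 RPKM in control libraries at 0 h. At 24 h they were 113 to 119 RPKM in cholesterol libraries and 137 to 144 RPKM in control libraries. At 48 h they were 132 to 153 RPKM in cholesterol libraries and 174 RPKM in both control libraries. Of 8 macrophage markers, 4 (Adgre1, Ptprc, Itgam and Cx3cr1) were near 0 in every library. The sum over all 8 was 10.5 to 11.4 RPKM with cholesterol against 6.37 to 8.01 RPKM in controls at 24 h and 17.7 to 18.8 RPKM with cholesterol against 8.84 to 9.33 RPKM in controls at 48 h. Among the markers called at 48 h by limma (adjusted p in parentheses), Myh11 (-0.59 on the log2 scale, 3.95e-05), Actg2 (-0.57, 0.00233) and Cnn1 (-0.57, 0.0202) of the contractile list fell, while Myocd, a transcription coactivator of contractile genes, rose (0.25, 0.0174). Of the 4 macrophage markers tested, Lgals3 (1.17, 2.24e-06), Cd68 (0.87, 0.000491) and Csf1r (0.18, 0.0207) rose. Cd14, the other marker tested, did not have a positive value and was not called. The endothelial marker Tek (-0.14, 0.000588) and the fibroblast markers Pi16 (-0.40, 0.00664) and Dcn (-0.07, 0.0251) fell. The smooth muscle and macrophage sums moved with the treatment at both times, and their part in the differences of the 10 genes was not tested. In bulk RNA, fewer cells of a type and less RNA per cell cannot be told apart.

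The genes lie on 10 different chromosomes (mouse build mm10), at chr8:111033842-111055569 for Aars, chr7:143557230-143600090 for Cars, chr1:185363095-185428355 for Eprs, chr6:55038001-55079504 for Gars, chr13:49682130-49734267 for Iars, chr10:127296221-127311786 for Mars, chr18:64499647-64516557 for Nars, chr3:108424864-108445259 for Sars, chr15:11383663-11399658 for Tars and chr12:108860030-108893211 for Wars. Exons make up 5.55% (Wars) to 18.9% (Mars) of the gene body. Per kilobase of gene body and averaged over the 14 libraries, Aars had the highest level at 17.3 RPKM, followed by Nars (13.9), Sars (13.7), Mars (10.8), Gars (9.39), Tars (8.64), Eprs (5.44), Wars (5.31), Cars (4.12) and Iars (3.29). Within the 3 control 24 h libraries, the neighbours Nars (11.6 ± 0.277 RPKM, SD, n = 3) and Sars (11.3 ± 0.214) overlapped, as did Gars (7.54 ± 0.134) and Tars (7.57 ± 0.112), and no other neighbours in the order did. Per kilobase of exon the order changed, with Gars highest (163 on the same scale), then Aars (101) and Wars (95.7), and with Iars still lowest (39.0). Small RNA genes or pseudogenes lie inside or beside several of the genes, and Mars shares 71 bp at its end with Ddit3 on the opposite strand. Whether the counting used strand is not given in the sources used here. Ddit3 itself rose with cholesterol, and what part of the Mars tags fell in the shared 71 bp was not tested.

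Cholesterol was compared with control at the same time to ask how loading changed each transcript. All 10 genes had higher means with cholesterol at both 24 h and 48 h. By limma with Benjamini-Hochberg adjustment over all 12648 genes, 4 of the 10 rose at 24 h (Cars, Eprs, Iars and Wars), where 2.48% of all genes rose, and 6 rose at 48 h (Cars, Eprs, Iars, Nars, Tars and Wars), where 11.9% of all genes rose. None of the 10 fell at either time. The median log2 difference over the 10 was 0.19 at 24 h and 0.28 at 48 h, against medians of -0.0026 and -0.0020 over all genes tested. In each of the 10, every cholesterol library lay above every control library of the same time, a pattern found in 17.9% of all genes at 24 h and in 21.7% at 48 h. Fold differences are on the log2(RPKM + 1) scale, which understates those of genes at low levels, and ratios are of mean RPKM.

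**Figure D1:**
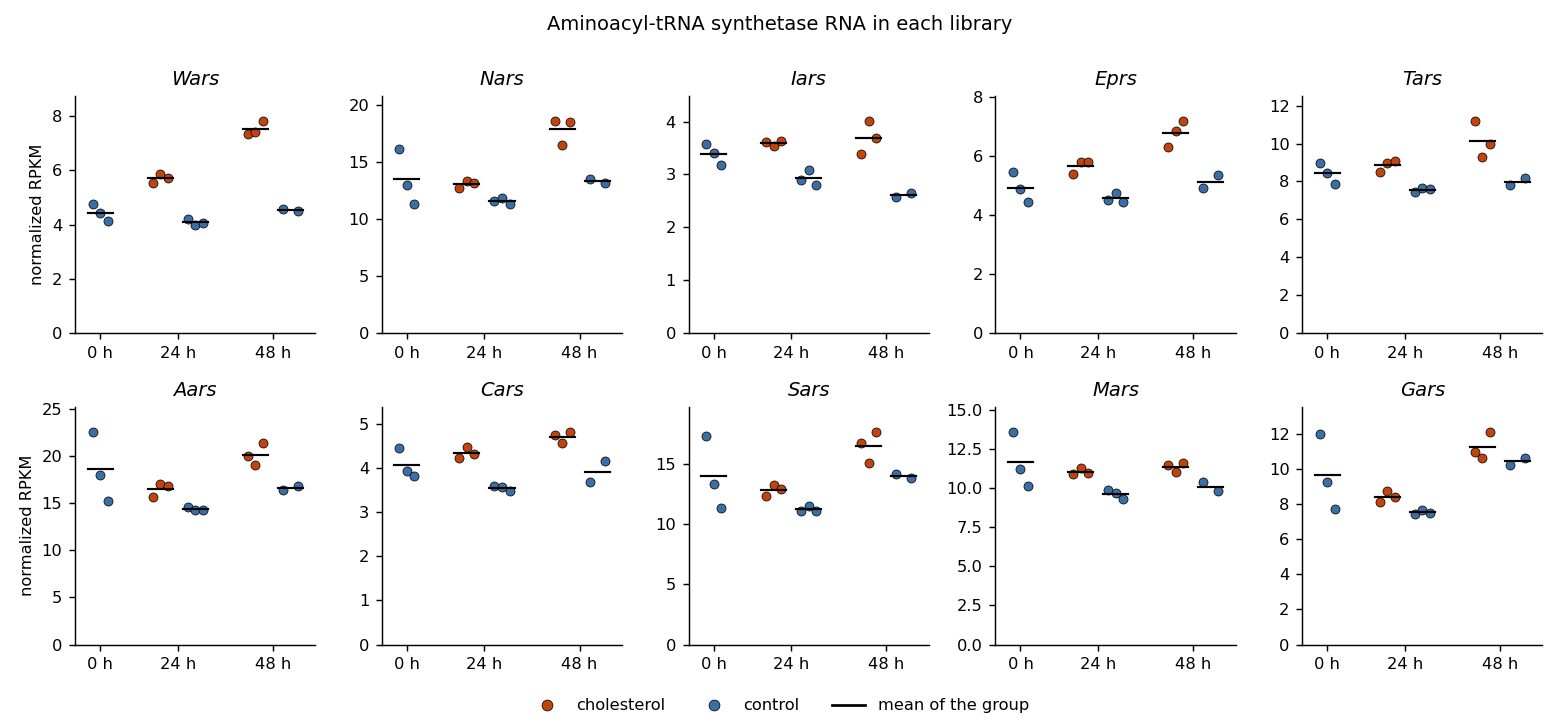
Normalised RPKM of each of the 10 synthetase genes in each of the 14 libraries, by time (0, 24 and 48 h), with cholesterol left of control at 24 h and 48 h. In every panel the cholesterol libraries lie above the controls of the same time, by the widest margin as a ratio in Wars (7.34 to 7.81 RPKM against 4.52 and 4.58 RPKM at 48 h) and by the narrowest in Gars, and the 3 control libraries at 0 h are spread more widely than those at 24 h.

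Wars, the tryptophanyl-tRNA synthetase and a free class I enzyme, had the largest difference of the 10 at both times. Its level was 5.53, 5.85 and 5.72 RPKM in the cholesterol libraries at 24 h, against 4.21, 3.99 and 4.07 RPKM in the control libraries. At 48 h it was 7.34, 7.42 and 7.81 RPKM with cholesterol, against 4.58 and 4.52 RPKM in control cells. The lowest cholesterol library at 48 h was 1.603 times the highest control. Wars rose by 0.40 on the log2 scale at 24 h (SE 0.0467, adjusted p = 0.000319, ratio 1.39) and by 0.62 at 48 h (SE 0.0522, adjusted p = 7.24e-06, ratio 1.65). It was the only one of the 10 called in every alternative analysis at 24 h, and Eprs, Iars and Wars were the 3 called in every alternative at 48 h. Cars charges tRNA with cysteine and is likewise a free class I enzyme. Its level was 4.23, 4.47 and 4.31 RPKM in the cholesterol libraries at 24 h, against 3.59, 3.56 and 3.47 RPKM in the control libraries. At 48 h the values were 4.75, 4.55 and 4.80 RPKM with cholesterol, against 3.67 and 4.14 RPKM in control cells. The groups were about equally far apart at both times. Cars rose by 0.23 at 24 h (SE 0.0524, adjusted p = 0.0233, ratio 1.22) and by 0.22 at 48 h (SE 0.0586, adjusted p = 0.0167, ratio 1.204).

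Of the 3 enzymes of the multi-tRNA synthetase complex, Eprs and Iars rose at both times and Mars was not called at either. Eprs carries both the glutamyl- and the prolyl-tRNA synthetase on a single chain. Its level was 5.41, 5.79 and 5.81 RPKM in the cholesterol libraries at 24 h, against 4.53, 4.74 and 4.46 RPKM in the control libraries. At 48 h it was 6.33, 6.86 and 7.20 RPKM with cholesterol, against 4.92 and 5.36 RPKM in control cells. No cholesterol library came below a control of its time. Eprs rose by 0.26 at 24 h (SE 0.0640, adjusted p = 0.0358, ratio 1.24) and by 0.34 at 48 h (SE 0.0716, adjusted p = 0.00415, ratio 1.32). Iars, the class I isoleucyl-tRNA synthetase, had the lowest level of the 10, with 3.61, 3.54 and 3.64 RPKM in the cholesterol libraries at 24 h, against 2.89, 3.09 and 2.79 RPKM in the control libraries. At 48 h the values were 3.39, 4.01 and 3.68 RPKM with cholesterol, against 2.58 and 2.64 RPKM in control cells. The cholesterol libraries of the 2 times overlapped, and both controls at 48 h lay below the 3 at 24 h. Iars rose by 0.23 at 24 h (SE 0.0536, adjusted p = 0.0286, ratio 1.23) and by 0.38 at 48 h (SE 0.05996, adjusted p = 0.000745, ratio 1.41). Mars, the class I methionyl-tRNA synthetase that also charges the initiator tRNA, had 10.9, 11.3 and 10.96 RPKM in the cholesterol libraries at 24 h, against 9.87, 9.68 and 9.29 RPKM in the control libraries. After 48 h it had 11.4, 11.05 and 11.6 RPKM with cholesterol, against 10.4 and 9.77 RPKM in control cells. The groups did not overlap, but the log2 differences of 0.18 at 24 h (95% interval 0.01 to 0.35, adjusted p = 0.235) and 0.16 at 48 h (-0.03 to 0.35, adjusted p = 0.215) did not pass.

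Of the 5 free class II enzymes, Nars and Tars rose at 48 h, and Aars, Gars and Sars were not called at either time. Nars, the asparaginyl-tRNA synthetase, had 12.7, 13.3 and 13.2 RPKM in the cholesterol libraries at 24 h, against 11.6, 11.9 and 11.3 RPKM in the control libraries. After 48 h it had 18.6, 16.5 and 18.5 RPKM with cholesterol, against 13.5 and 13.2 RPKM in control cells. The gap between the groups was wider at 48 h, and Nars rose by 0.40 there (SE 0.105, adjusted p = 0.0161, ratio 1.34), while its difference at 24 h was 0.16 (95% interval -0.05 to 0.36, adjusted p = 0.428). Tars, the threonyl-tRNA synthetase, had 8.51, 8.99 and 9.07 RPKM in the cholesterol libraries at 24 h, against 7.44, 7.64 and 7.63 RPKM in the control libraries. At 48 h it stood at 11.2, 9.27 and 9.99 RPKM with cholesterol, against 7.81 and 8.19 RPKM in control cells. Cholesterol replicate 1 was the highest of its group at 48 h. Tars rose by 0.31 at 48 h (SE 0.0696, adjusted p = 0.00698, ratio 1.27), and at 24 h the difference was 0.20 (0.07 to 0.34, adjusted p = 0.0896).

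The remaining 3 class II genes had the same order of groups with wider errors. Aars, the alanyl-tRNA synthetase, had 15.7, 17.1 and 16.8 RPKM in the cholesterol libraries at 24 h, against 14.6, 14.3 and 14.3 RPKM in the control libraries. At 48 h it had 20.1, 19.1 and 21.4 RPKM with cholesterol, against 16.4 and 16.9 RPKM in control cells. The differences of 0.19 (95% interval -0.04 to 0.41, adjusted p = 0.386) and 0.26 (0.01 to 0.51, adjusted p = 0.123) did not pass at 24 h or 48 h. Sars, the seryl-tRNA synthetase, which also charges the selenocysteine tRNA, had 12.3, 13.3 and 12.9 RPKM in the cholesterol libraries at 24 h, against 11.1, 11.5 and 11.1 RPKM in the control libraries. At 48 h it had 16.7, 15.1 and 17.7 RPKM with cholesterol, against 14.2 and 13.9 RPKM in control cells. Its differences were 0.17 (-0.06 to 0.41, adjusted p = 0.467) and 0.22 (-0.05 to 0.48, adjusted p = 0.232). Gars, the glycyl-tRNA synthetase that serves both the cytosol and the mitochondria, had 8.14, 8.75 and 8.39 RPKM in the cholesterol libraries at 24 h, against 7.44, 7.69 and 7.47 RPKM in the control libraries. At 48 h it had 10.98, 10.6 and 12.1 RPKM with cholesterol, against 10.3 and 10.6 RPKM in control cells. The closest libraries of the 2 groups at 48 h differed by a factor of only 1.00, and the differences were 0.14 (-0.09 to 0.38, adjusted p = 0.558) at 24 h and 0.10 (-0.17 to 0.36, adjusted p = 0.616) at 48 h. The errors of Aars, Gars and Sars are the 3 largest of the 10, and the model shares 1 estimate of the spread over all groups, including control 0 h, where Aars had 22.6, 18.01 and 15.3 RPKM. Without control 0 h replicate 1, a library that the study itself kept out of a later clustering step because it stood apart from its replicates, the 48 h count was 9, with Aars, Mars and Sars added, and 13.4% of all genes rose. A model of the cholesterol and control 24 h libraries alone called 10 at 24 h, where 7.67% of all genes rose, whereas one of the 48 h libraries alone called 4 at 48 h, where 4.50% rose, with Cars and Tars lost. The RPKM as deposited, without rescaling, gave 8 at 48 h, with Aars and Mars added, where 12.5% of all genes rose. Over all genes, 1586 were then higher and 1280 lower, against 1503 and 1636 in the reported test. Leaving out any cholesterol 24 h library, or control 24 h replicate 1 or 3, lowered the count at 24 h to 1 (Wars), and leaving out control 24 h replicate 2 lowered it to 2 (Iars and Wars). At 48 h the count was 3 without control 48 h replicate 2, where Cars, Nars and Tars were lost.

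**Figure D2:**
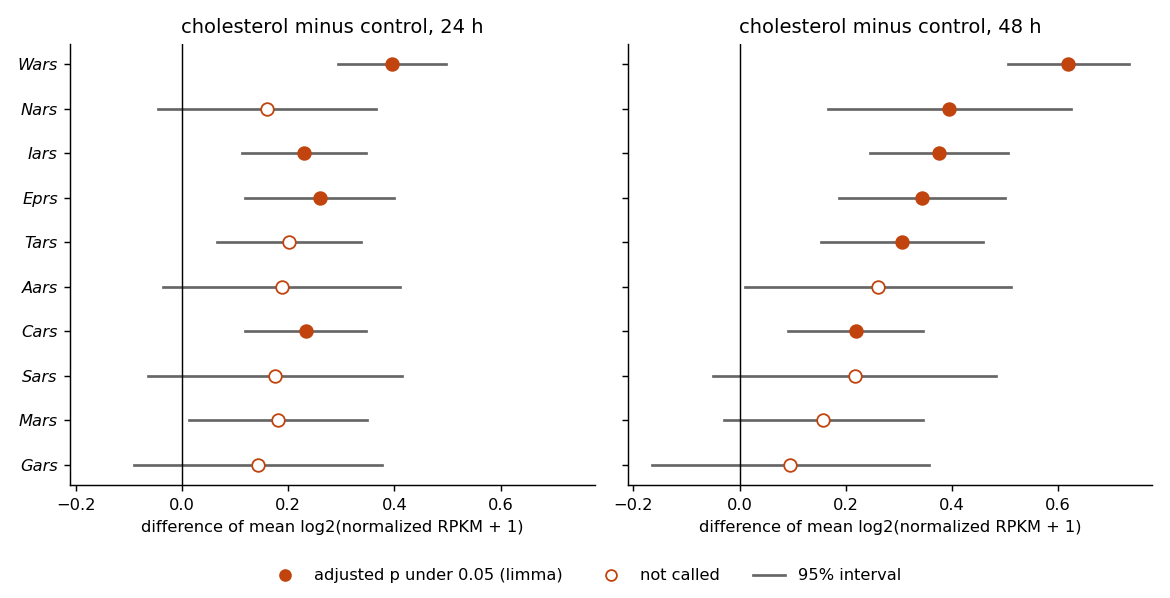
Log2 difference of cholesterol over control for each of the 10 genes at 24 h and 48 h, with 95% intervals from limma and filled points for genes past an adjusted p of 0.05. Every point lies above 0, from 0.14 (Gars) to 0.40 (Wars) at 24 h and from 0.10 (Gars) to 0.62 (Wars) at 48 h.

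An F-test over both times, which asks whether cholesterol and control differed at either time, called the same 6 genes as the test at 48 h, with adjusted p of 3.35e-06 for Wars, 0.000581 for Iars, 0.00209 for Eprs, 0.00349 for Cars, 0.00523 for Tars and 0.0261 for Nars, where 24% of all genes were called. Whether the effect grew between the times was tested as a difference of the differences. By limma, 0 of the 10 passed, where 5.38% of all genes did, and 1 had an unadjusted p under 0.05. That gene was Wars, with 0.22 more on the log2 scale at 48 h than at 24 h (95% interval 0.07 to 0.38, adjusted p = 0.0967). The difference was positive in 7 of the 10, with a median of 0.08, and stood at 0.24 for Nars (adjusted p = 0.452) and 0.15 for Iars (adjusted p = 0.395). Wars passed and the count was 1 with array weights, where 11.03% of all genes were called, and with only the groups compared (5.811%). The same held with the RPKM as deposited (4.056% of all genes called) and without control 0 h replicate 1 (6.38%).

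Time in the medium was compared within each treatment. Library depth also differed with time. The 24 h libraries held 6759000 to 7590640 tags, and the 48 h libraries 3634030 to 4968090. Control 0 h replicates 1, 2 and 3 held 2726570, 4782190 and 6994620. Between 24 h and 48 h, depth and time cannot be told apart, and the part of depth was not tested in any comparison over time. In control cells, all 10 genes had lower means at 24 h than at 0 h, with log2 differences of -0.33 (Aars) to -0.09 (Eprs and Wars), but 0 of 10 passed, where 3.7% of all genes fell. In limma 6 had an unadjusted p under 0.05, and voom weights on the recovered tags called 4 (Aars, Gars, Mars and Sars), where 7.09% of all genes fell. Without control 0 h replicate 3, the library with the lowest levels of that group, 7 passed, where 11.6% of all genes fell. In 6 of the 10, every control library at 24 h lay below every one at 0 h, as in 16.9% of all genes. At 48 h, Iars fell against 0 h, with 2.58 and 2.64 RPKM in control 48 h libraries against 3.57, 3.41 and 3.17 RPKM at 0 h (log2 difference -0.28, SE 0.05996, adjusted p = 0.00822), where 8.05% of all genes fell. The other 9 were not called, and Iars was not called without control 48 h replicate 2, with array weights or with only the groups compared. Between control 48 h and control 24 h, 0 of the 10 passed, where 3.66% of all genes did, although 9 were higher at 48 h, and 3 had an unadjusted p under 0.05: Gars (0.42, adjusted p = 0.0685), Sars (0.29, adjusted p = 0.163) and Wars (0.12, adjusted p = 0.166). Only the groups compared in the model gave 4 calls there (Aars, Gars, Nars and Sars), where 17.3% of all genes were called. Leaving out control 0 h replicate 1 gave 2 (Gars and Sars), where 13.7% of all genes were called. Other translation genes, listed below, had medians of the same sign in control cells. From 0 h to 24 h the median was -0.17 in the 10, -0.14 in 33 initiation factors and -0.30 in 8 genes of the elongation list. From 24 h to 48 h the medians were 0.13, 0.19 and 0.38 in the same order.

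In cholesterol cells, 5 of the 10 rose between 24 h and 48 h, where 12.1% of all genes rose: Nars (0.42, adjusted p = 0.00801, ratio 1.37), Gars (0.37, adjusted p = 0.0262, ratio 1.33), Wars (0.35, adjusted p = 0.000418, ratio 1.32), Sars (0.34, adjusted p = 0.0445, ratio 1.28) and Eprs (0.22, adjusted p = 0.0265, ratio 1.198). Gars and Sars also had the largest values of the 10 in control cells over the same time. Aars (0.27, adjusted p = 0.0766), Tars (0.17, adjusted p = 0.0621) and Cars (0.10, adjusted p = 0.209) were not called, and Iars and Mars had values of 0.03 and 0.04. In 8 of the 10 every library at 48 h lay above every library at 24 h, a pattern of 22.6% of all genes. The median over the 10 was 0.25. Of 33 initiation factors, 9 rose and 32 had positive values (median 0.17). Of 8 genes of the elongation list, 2 rose and 8 had positive values (median 0.35). The cholesterol 48 h libraries were also less deep than those at 24 h. This count of 5 was 8 with array weights, where 22.2% of all genes rose. It was 3 with quantile normalisation (12.1% of all genes) or with no filter on low values (6.56%). Leaving out any cholesterol 24 h library or cholesterol 48 h replicate 3 left 2 (Nars and Wars), where 6.05% to 7.80% of all genes rose. Leaving out control 0 h replicate 1 or 3 gave 7, with Aars and Tars added, where 16.5% or 14.6% of all genes rose.

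Set beside cholesterol-treated cells, the control cells at 0 h overlapped in many of the genes. At 24 h with cholesterol, 1 of the 10 genes, Wars, had every library above every 0 h library, where 21.1% of all genes had. The ratio of means was 1.28 for Wars, and it ranged over 0.872 (Gars) to 1.15 (Eprs) in the other 9, whose libraries overlapped. At 48 h the count was 5, where 18.4% of all genes were so placed: Wars (ratio 1.70), Eprs (1.38), Nars (1.33), Tars (1.205) and Cars (1.16). Aars, Gars, Iars, Mars and Sars overlapped with 0 h, with ratios of 0.977 (Mars) to 1.18 (Sars). The 0 h libraries differ in treatment time as well as in cholesterol, and they were less deep than the cholesterol 24 h libraries. These comparisons also use the cholesterol libraries already used above, so the values stand as a description.

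The levels of the 10 genes were also compared with one another across the 14 libraries. For a level of the group as a whole, each gene was scaled to Z-scores over the libraries and the 10 were averaged. The mean Z-score was -0.10, 0.26 and 0.16 in the cholesterol 24 h libraries and -1.07, -0.98 and -1.21 in control 24 h libraries. It was 1.22, 0.98 and 1.45 in cholesterol 48 h libraries and -0.45 and -0.29 in control 48 h libraries. At control 0 h it was 0.97, -0.12 and -0.84, so that these 3 libraries of a single group were far apart. Their depths were 2726570, 4782190 and 6994620 tags in the same order, and the part of depth was not tested. Over the 45 pairs of genes, Pearson's r was 0.28 to 0.97 with a median of 0.79, highest for Sars with Gars and lowest for Iars with Gars, with 19 pairs over 0.8 and 2 under 0.5. Against the mean of the other 9, r was 0.95 for Nars, 0.94 for Cars, 0.92 for Aars, 0.91 for Sars, 0.90 for both Eprs and Tars, 0.85 for Wars, 0.80 for Gars, 0.77 for Mars and 0.64 for Iars. By r with the mean of all 10, of which each is a part, they ranked from 4 (Nars) to 750 (Iars) among all genes tested. Wars ranked 80, Gars 171 and Mars 243, so many genes outside the 10 followed that mean more closely than these did. The libraries share treatment, time and scaling, and their depth differs between times, so the correlations are descriptions.

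Among all other genes tested, Asns had the pattern most like the mean of the 10 (r = 0.97 over 14 libraries), ahead of Rnf145 (0.97), Tubb3 (0.97), Shmt2 (0.96) and Slc7a5 (0.95). Asns codes for asparagine synthetase, and its means were 10.8 RPKM with cholesterol against 8.66 RPKM in controls at 24 h, and 13.97 RPKM with cholesterol against 9.24 RPKM in controls at 48 h, with 10.6 RPKM at control 0 h. It rose at 48 h (log2 difference 0.55, adjusted p = 0.000816) and had 0.28 at 24 h (adjusted p = 0.0614). Shmt2, a mitochondrial enzyme of serine and glycine metabolism, rose at both times, by 0.40 at 24 h (adjusted p = 0.0176) and 0.54 at 48 h (adjusted p = 0.00154), and so did Slc7a5, a transporter of large neutral amino acids, by 0.37 (adjusted p = 0.0358) and 0.54 (adjusted p = 0.00229). Tubb3, a β-tubulin, rose at 48 h by 0.36 (adjusted p = 0.0212), and Rnf145, a ubiquitin ligase, was not called (0.17 and 0.13).

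Other synthetases were set beside the 10. Over all genes tested, 2.48% rose and 2.965% fell at 24 h, and 11.9% rose and 12.9% fell at 48 h. Of 11 further cytosolic synthetases, 3 rose at 24 h and 4 rose and 1 fell at 48 h, with median log2 differences of 0.11 and 0.10 at 24 h and 48 h. Lars, the leucyl-tRNA synthetase, rose at 48 h to 5.24 RPKM with cholesterol against 3.99 RPKM in controls (0.32, adjusted p = 0.000585). Rars (0.28, adjusted p = 0.00346), Yars (0.26, adjusted p = 0.00587) and Farsb (0.19, adjusted p = 0.0157), for arginine, tyrosine and phenylalanine, rose as well. Tarsl2, another threonyl-tRNA synthetase at a low level, fell (0.405 RPKM with cholesterol against 0.576 RPKM in controls at 48 h, log2 difference -0.16, adjusted p = 0.00854). Of 17 mitochondrial synthetases, 0 were called at 24 h, and at 48 h 1 fell, Cars2 for mitochondrial cysteine (1.95 RPKM with cholesterol against 2.64 RPKM in controls, log2 difference -0.30, adjusted p = 0.00155), with medians of 0.03 and 0.01. Of the 3 proteins without enzyme activity in the multi-tRNA synthetase complex, Eef1e1 rose at 48 h (0.24, adjusted p = 0.0477, 1.95 RPKM with cholesterol against 1.505 RPKM in controls), and Aimp1 and Aimp2 were not called at either time. Positive values were found in 14 of the 17 mitochondrial genes at 24 h and 9 at 48 h, and in 9 of the 11 cytosolic genes at each time. The log2(RPKM + 1) scale shrinks differences of genes at low levels, as in Nars2 (0.03 at 24 h, ratio 1.29). Differences between the lists were not tested.

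Genes of the ATF4 and amino acid response were set beside the synthetases because many synthetases are known ATF4 targets. The 31 listed genes include Asns and Ddit3, and of the 30 tested, 16 rose at 24 h and 24 at 48 h and 0 fell, with medians of 0.31 and 0.54. The shares of all genes that rose were 2.48% and 11.9%. Atf3, a stress-induced transcription factor, rose to 2.40 RPKM with cholesterol against 0.551 RPKM in controls at 24 h (log2 difference 1.13, adjusted p = 1.19e-06) and to 4.09 RPKM with cholesterol against 0.604 RPKM in controls at 48 h (1.66, adjusted p = 1.02e-07). Trib3, a pseudokinase induced by ATF4, rose to 21.6 RPKM with cholesterol against 11.96 RPKM in controls at 24 h (0.80, adjusted p = 2.76e-05) and to 28.4 RPKM with cholesterol against 8.33 RPKM in controls at 48 h (1.65, adjusted p = 1.25e-07). Chac1, which degrades glutathione, rose to 24.3 RPKM with cholesterol against 11.5 RPKM in controls at 24 h (1.01, adjusted p = 3.28e-06) and to 29.1 RPKM with cholesterol against 10.2 RPKM in controls at 48 h (1.43, adjusted p = 2.41e-07). Ddit3, the transcription factor CHOP and the gene that overlaps the end of Mars, rose by 0.71 at 24 h (adjusted p = 1.71e-05) and 1.40 at 48 h (adjusted p = 1.25e-07). The transcript of Atf4 itself was not called, with 93.4 ± 8.70 RPKM with cholesterol (SD, n = 3) against 68.6 ± 4.17 RPKM in controls (SD, n = 2) at 48 h (0.44, adjusted p = 0.0707). The list of the 4 eIF2α kinases with the GCN2 activator Gcn1l1 had 0 of 5 called at 24 h and 1 at 48 h, Eif2ak3, which codes for PERK (0.35, adjusted p = 0.000662, ratio 1.49).

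Other parts of the translation machinery were counted in the same way, where 2.48% of all genes rose at 24 h and 11.9% at 48 h. Of 8 genes in the elongation list, 0 were called at 24 h and 2 rose at 48 h. These were Eef1e1, already counted with the complex, and Eef2k, the kinase of elongation factor 2 (0.21, adjusted p = 0.00543), neither of them an elongation factor itself, and the other 6 were not called. Of 33 initiation factors, 0 were called at 24 h and 2 rose at 48 h (Eif2b4, 0.38, adjusted p = 0.00637, and Eif2b3, 0.15, adjusted p = 0.00535, subunits of the exchange factor for eIF2). Of 29 tested genes of tRNA maturation, 2 rose at 24 h, and 6 rose and 1 fell at 48 h. Xpot, the exporter of tRNA from the nucleus, rose to 3.73 RPKM with cholesterol against 2.72 RPKM in controls at 24 h (0.35, adjusted p = 0.000421) and to 4.07 RPKM with cholesterol against 2.53 RPKM in controls at 48 h (0.52, adjusted p = 1.21e-05). Trmt61a, a tRNA methyltransferase subunit, rose at 48 h (0.34, adjusted p = 0.00938), and Adat3, part of a tRNA deaminase, fell (-0.35, adjusted p = 0.0367).

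**Figure D3:**
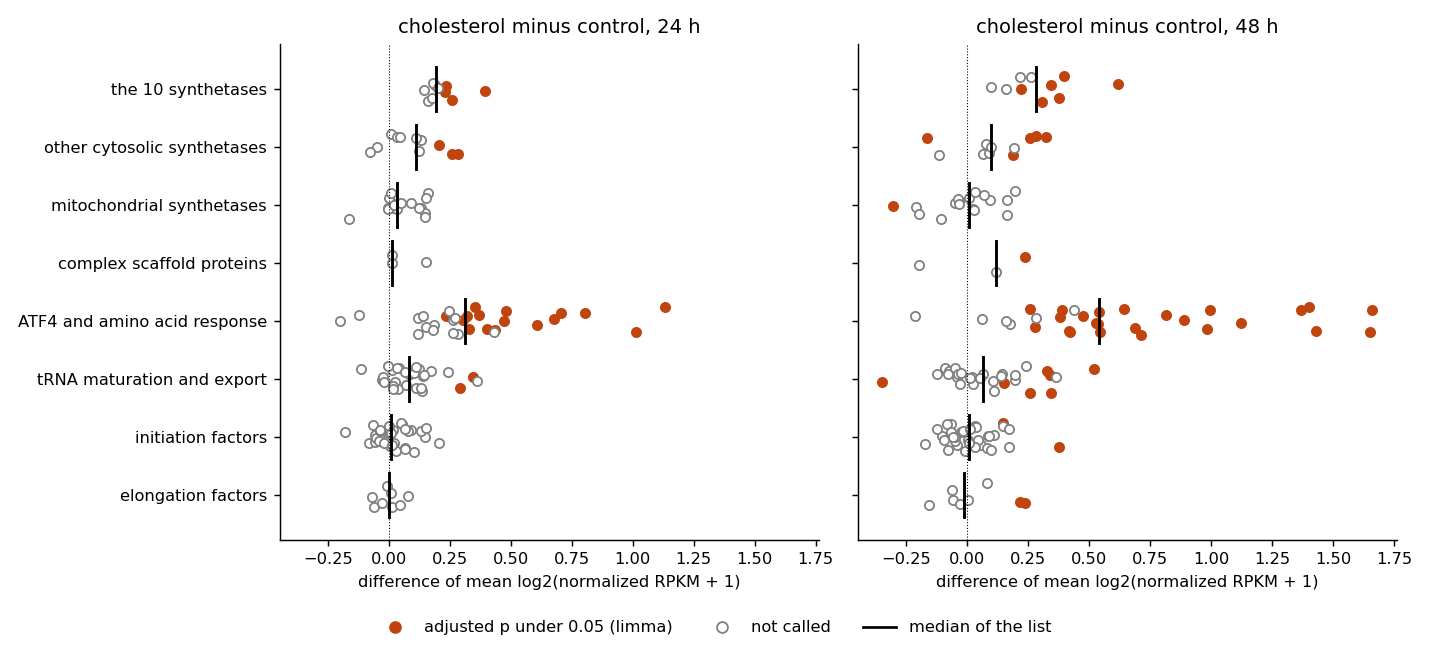
Log2 difference of cholesterol over control at 24 h and 48 h for every tested gene of each list, with the median as a bar. The 10 synthetases (medians 0.19 and 0.28) lie above 0 throughout, the amino acid response list has the largest medians (0.31 and 0.54), and the mitochondrial synthetases have medians of 0.03 and 0.01. Of these 17, 14 have positive values at 24 h and 9 at 48 h. The log2(RPKM + 1) scale understates differences of genes at low levels.

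H3K27ac at the starts of the 10 genes was read from the regions the authors called, as tags per kilobase of region within 1 kb of the transcript start. There is 1 library per condition and so no test. At 24 h the mark was above control in all 10 genes, with a median ratio of 1.34, against 1.08 over the 10524 genes with a region in both libraries. It was 1.5-fold or more in 2, where 5.48% of all genes differed by that much in either direction. Those were Mars, with 88.6 tags per kb over 1871 bp in cholesterol cells against 58.0 tags per kb over 2241 bp in control cells (ratio 1.53), and Gars, with 97.1 tags per kb in cholesterol cells against 64.1 in control cells (1.51). Wars and Tars had ratios of 1.46, Eprs of 1.37, Nars of 1.31, Sars of 1.30, Cars of 1.26, Aars of 1.121 and Iars of 1.00. The called regions differed in width between libraries, and the tags summed over them named other genes. The sums were above control in all 10 as well, but 4 passed 1.5-fold, Wars (ratio 1.904), Nars (1.59), Cars (1.59) and Aars (1.51), where 10.5% of all genes did in either direction, while Gars had 1.27 and Mars 1.28.

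At 48 h the mark was above control in 8 of the 10, with a median ratio of 1.21 against 1.00 over 9939 genes, and 1 gene, Cars, passed 1.5-fold (71.7 tags per kb in cholesterol cells against 44.1 in control cells, ratio 1.63), where 6.26% of all genes did in either direction. Wars, with the largest RNA difference, had 42.3 tags per kb in cholesterol cells against 38.1 in control cells (1.11), and it had the lowest mark of the 10 in each of the 4 libraries at 24 h and 48 h. Sars (0.9795) and Gars (0.871) were below control. The remaining 6 had ratios of 1.04 (Eprs) to 1.30 (Mars). By summed tags, 0 of the 10 passed 1.5-fold at 48 h, where 13.8% of all genes did, and the direction turned in 4 genes: Sars (1.205) and Gars (1.17) were above control, and Nars (0.923) and Eprs (0.994) were below it. Cars, past 1.5-fold by tags per kb, had 1.11. In control cells at 0 h the 8 genes with a called region had 33.5 (Eprs) to 50.8 (Nars) tags per kb, and Cars and Wars had no called region at the start. Levels in that library were below those of control cells at 24 h and 48 h in 7 of these 8, Tars being the exception (48.1 at 0 h, 45.9 at 24 h and 61.2 tags per kb at 48 h). Among the control libraries, the fold over input was instead highest at 0 h in all 8, as in Aars (19.7 at 0 h, 7.92 at 24 h and 5.55 at 48 h). No order over time is therefore read from the mark.

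**Figure D4:**
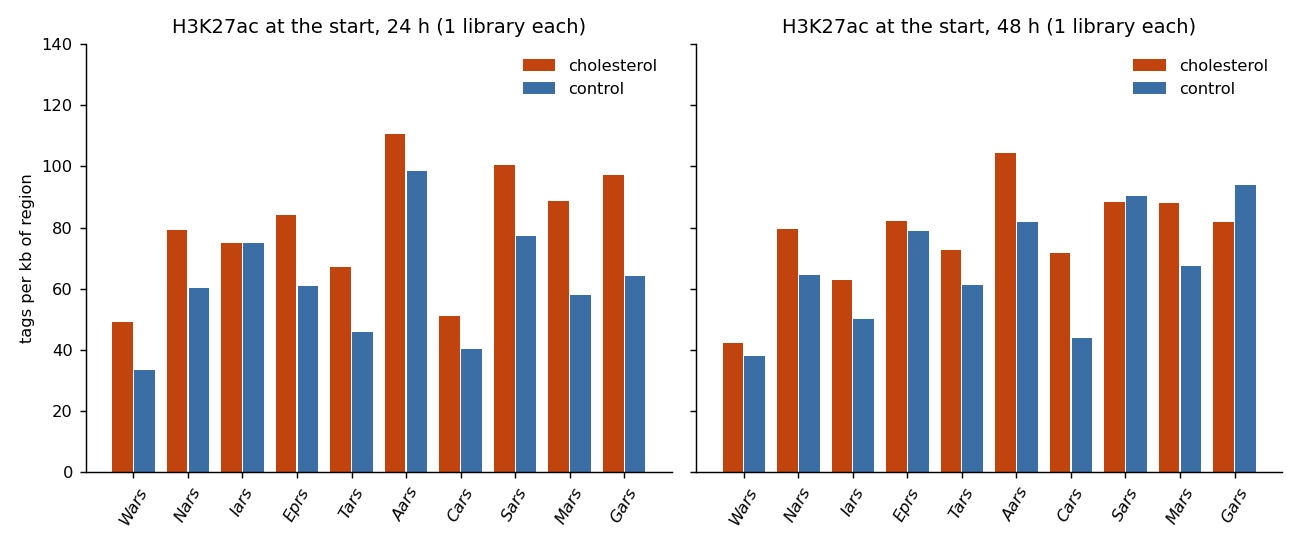
H3K27ac tags per kilobase of called region at the start of each of the 10 genes, in cholesterol and control cells at 24 h and at 48 h, with 1 library per bar and no error. Cholesterol bars are above control bars in all 10 genes at 24 h, by little in Iars (75.0 against 74.8), and in 8 of 10 at 48 h, Gars (81.8 against 93.9) and Sars (88.4 against 90.2) being the others, whereas by tags summed over the regions Gars and Sars are above control at 48 h and Nars and Eprs below it.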

How the data were processed

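RNA from 14 cultures and H3K27ac ChIP with input from 5 conditions were sequenced. The authors mapped RNA reads to mm10 with STAR and deposited RPKM per RefSeq gene body with HOMER, 1 tag per position, and the length of each gene body. ChIP reads were mapped with Bowtie2, and HOMER regions were deposited with a tag signal, a ratio of fold over input, and a p-value and a score from the peak caller. Versions are not given in the sources used here. Of the deposited region values, the tag signal was used, with the fold over input in an alternative.

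Of 35756 rows, 34711 had a name, and the row of highest mean was kept for each of 24453 genes. The 12648 genes whose estimated reads exceeded 70 in any library were tested. The estimate used the study's mapped reads, and a filter on tags recovered from the RPKM steps (100% of low values whole within 0.25 tag) was an alternative. Values were scaled by median of ratios (factors 0.904 to 1.06), and log2(value + 1) was fitted with 1 mean per group in limma 3.58.1 (R 4.3.3, trended eBayes), with Benjamini-Hochberg adjusted p under 0.05, two-sided, called as changed. Because the values are RPKM, no count model was the main test. The script was checked on simulated data. Tables were made in Python 3.11.15 with pandas 2.3.3 and numpy 2.4.6. H3K27ac was compared at regions within 1 kb of the start and counted past 1.5-fold. The study discarded control 48 h replicate 1 for its low depth and its distance from its replicates, and left control 0 h replicate 1, used here, out of a clustering step because it too stood apart. It describes its RNA libraries as biological replicates. The comparisons at 24 h and 48 h use separate controls, whereas those over time share libraries with them.

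All 10 genes were named throughout. From each other list (other cytosolic and mitochondrial synthetases, complex scaffold, ATF4 and amino acid response, eIF2α kinases, elongation, initiation, tRNA maturation and cell type markers), the rule named the 3 largest changes called at 48 h and any against the list's direction, and the 5 other genes of highest correlation with the members' mean were named too. Farsb, Atf4, Ddit3, Aimp1 and Aimp2 were named outside it, after their values were seen. Members and lists were chosen with earlier results of these data known. Alternatives changed the pseudocount (0.1), filter, scaling, weights, eBayes trend, libraries in the model, replicate block and transcript row, and left out each library. Besides the smooth muscle and macrophage markers, 6 endothelial markers summed to 0.298 to 0.764 RPKM and 6 fibroblast markers to 69.4 to 165 RPKM over the libraries. Of the fibroblast markers, Col1a1 alone had 68.1 to 165 RPKM. The sequence at the start of Aars is not reported here.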

Additional observations from a re-analysis of the deposited data

Results flagged for a closer look

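None of the 10 synthetase genes met a rule for a closer look, and groups of 2 or 3 libraries were not tested for outlying samples. For 4 genes of the amino acid response list that the text names, the cholesterol effect itself differed between the times by limma, with Benjamini-Hochberg adjustment over 12648 genes. The effect at 48 h exceeded that at 24 h by 0.85 on the log2 scale for Trib3 (0.8463, adjusted p = 0.0012), by 0.69 for Ddit3 (0.6929, adjusted p = 0.00133), by 0.53 for Atf3 (0.5279, adjusted p = 0.00979) and by 0.42 for Chac1 (0.4152, adjusted p = 0.0368). The effects also differed for Aimp2 of the multi-tRNA synthetase complex (-0.3493, adjusted p = 0.0495), with 0.15 at 24 h and -0.20 at 48 h, neither called, and for the cell type markers Lgals3 (0.5529, adjusted p = 0.0157), Tek (-0.2657, adjusted p = 0.000618) and Pi16 (-0.4727, adjusted p = 0.0445).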

How the results depend on the processing

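Over 25 alternatives, no direction of cholesterol against control turned in any of the 10 genes at 24 h or 48 h. In all 10 every cholesterol library lay above every control library of its time. Leaving out 1 library therefore could not turn a direction, and several other alternatives left the group means as they were. On leaving out each library, 1.11% to 3.87% of all genes rose at 24 h and 7.46% to 13.4% at 48 h. Counts of genes called, 4 at 24 h and 6 at 48 h, were 1 to 5 and 3 to 9 on leaving out each library, and those of the other tests were 0 to 1 (difference of effects, 0), 0 to 7 (control 24 h against 0 h, 0), 0 to 2 (control 48 h against 0 h, 1), 0 to 2 (control 48 h against 24 h, 0), 2 to 7 (cholesterol 48 h against 24 h, 5) and 5 to 9 (F-test, 6). In those fits, 3.23% to 6.84% of all genes were called for the difference of effects. The shares called were 8.26% to 21.0% for control 48 h against 0 h and 0.308% to 13.7% for control 48 h against 24 h. The F-test called 17.0% to 27.65%. In control 24 h against 0 h, 1.455% to 11.6% fell, and in cholesterol 48 h against 24 h, 6.05% to 16.5% rose. At 24 h the count was 7 with quantile normalisation (3.43% of all genes higher), 9 with array weights (11.8%) and 10 with only the groups compared (7.67%). The 48 h count was 4 with only the groups compared (Cars and Tars lost, 4.50% of all genes higher). It was 8 with RPKM as deposited (Aars and Mars gained, 12.5% of all genes higher). The difference of effects had 1 call with RPKM as deposited (4.056% of all genes called), array weights (11.03%) or only the groups compared (5.811%). Control 24 h against 0 h had 1 with quantile normalisation (5.345% of all genes lower) and 4 with voom weights (7.09%). Control 48 h against 0 h had 2 with quantile normalisation (9.43% of all genes lower) and 0 with array weights (4.11%) or only the groups compared (3.04%). Control 48 h against 24 h had 1 with RPKM as deposited (4.475% of all genes called), quantile normalisation (4.89%) or voom (6.44%). It had 2 with array weights (19.35%) and 4 with only the groups compared (17.3%). Cholesterol 48 h against 24 h had 3 with no filter (6.56% of all genes higher) or quantile normalisation (12.1%) and 8 with array weights (22.2%). A fold over input of at least 8 left 1 gene (Eprs) with H3K27ac above control, at 24 h and at 48 h, since fewer regions remained. Other causes were not tested. Leaving out libraries turned the sign of values that were not called, with ranges of -0.084 to 0.055 (Cars), -0.064 to 0.018 (Mars) and -0.0055 to 0.0997 (Sars) for the difference of effects, of -0.26 to 0.0048 (Aars), -0.11 to 0.026 (Cars), -0.0072 to 0.116 (Eprs), -0.014 to 0.27 (Gars), -0.11 to 0.13 (Nars), -0.11 to 0.175 (Sars) and -0.010 to 0.075 (Wars) for control 48 h against 0 h, and of -0.020 to 0.075 (Iars) for cholesterol 48 h against 24 h. Other values that turned sign were not called either: Gars in the difference with array weights (0.01); in control 48 h against 0 h, Nars with pseudocount 0.1 (0.000194), array weights (0.058), the replicate block (0.033) or the mean over rows (0.000544) and Sars with voom (-0.035); in control 48 h against 24 h, Mars (-0.017 deposited, -0.016 quantile) and Tars (-0.0078, -0.0034); in cholesterol 48 h against 24 h, Iars (-0.030 deposited) and Mars (-0.028, -0.087 quantile). RPKM as deposited changed the higher and lower calls over all genes to 763 and 318 (564 and 468 in the reported test) for control 24 h against 0 h, 154 and 412 (208 and 255) for control 48 h against 24 h, and 1105 and 1898 (1526 and 1441) for cholesterol 48 h against 24 h. With the replicate number as a block, 3 genes were called at 24 h (Eprs lost), 6 at 48 h, 4 for cholesterol 48 h against 24 h (Sars lost) and 5 by the F-test. Of all genes, 2.095%, 10.8% and 10.5% were then higher in the first 3 of these, and the F-test called 21.1%. Same-numbered libraries correlated at -0.28 to 0.13 in their deviations, over 0.1 in 1 of 26 pairs, against -0.18 to 0.28 in 52 other pairs. Deviations within groups of 2 or 3 libraries sum to 0, so this check cannot tell whether the numbers pair the samples. The depth of 353 to 2913 tags per value is only part of what limits how small a difference can be seen. The errors did not follow depth. Aars and Gars, with at least 1209 and 1227 tags per value, had SEs of 0.103 and 0.107 at 24 h. Wars and Cars, with at least 390 and 469 tags, had 0.0467 and 0.0524.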
